A study of Homo sapiens with 6 samples.

Results

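Centrioles are built once per cell cycle and carry a cap, appendages and a cloud of satellite granules, and the 31 genes described here encode proteins of these structures. They were chosen by function out of 63140 genes in the count table, with the fold changes and adjusted p-values of this same comparison already known, and the rule sets no threshold on them. The changes below are therefore a description: each call is that of a fit over all tested genes, and the list as a whole was not tested. All 31 genes passed the filter on low counts, with 227 counts or more in every library, so none was lost from the account. The study asked how the structure of microRNA-target pairs bears on repression of the target, and transfected HEK293T, a line derived from human embryonic kidney, with a miR-34a duplex (3 libraries) or with AllStars (3 libraries), a commercial negative control that the labels call an siRNA. Both groups were thus transfected, and no other treatment is named. RNA was taken 18 h later for bulk sequencing. The 3 libraries of a group are described as biological replicates of this single line.

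Duplication starts when the kinase PLK4, held on the parent centriole by the scaffolds CEP152 and CEP192, phosphorylates STIL and allows SASS6 to form the cartwheel on which the new centriole is laid down. CENPJ (also called CPAP), CEP120 and CEP135 then build and lengthen the microtubule wall. CCP110 and its partners cap the distal end, and loss of that cap from the mother centriole is a known step on the way to a primary cilium. Satellites, organised by PCM1, carry proteins to and from the centrosome and the base of the cilium. miR-34a is a microRNA that p53 induces. Like other microRNAs it pairs with target mRNAs mainly through its seed, bases 2 to 8.

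The mature strands of the duplex are shown because the seed, in capitals, decides which 3′ UTR sites were searched for (RefSeq, GRCh38.p14).
hsa-miR-34a-5p: uGGCAGUGucuuagcugguugu
hsa-miR-34a-3p: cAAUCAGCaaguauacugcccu
Few of the centriole genes hold a match to the seed of the 5p strand. In the 3′ UTR of the transcript with the longest coding sequence, 2 of 31 genes (6.45%) had a 7mer or 8mer match, against 20.9% of 12943 classed genes. These were CEP44 and NIN, each with 1 7mer-A1 match, the weakest of the 7-base kinds. The 3′ UTRs of the 31 genes ran from 66 nt (CNTROB) to 5011 nt (CEP97). A short 3′ UTR has less room for a match, and the shares were not compared at equal length. The 2 matches are shown on the transcript strand with the match in capitals and up to 11 bases on either side (GENCODE 29 transcripts, GRCh38).
CEP44, chr4:174332647-174332653, plus strand: ttcacatctgaACTGCCAgagatctcagg
NIN, chr14:50723364-50723370, minus strand: cctaacctaaaACTGCCAgcaacacaact
Both lie in the last exon, 1052 nt after the stop codon in CEP44 and 93 nt after it in NIN. CEP72 and SSX2IP held 6mer matches, and NIN a further one. None of these 4 genes was called changed, and all 4 had log2 fold changes above 0, from 0.03 to 0.16. Of the 9 genes called higher below, none held a match of any kind to the 5p seed. Over all classed genes, 48.0% of those called lower and 14.3% of those called higher held a 7mer or 8mer match.

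With miR-34a, 9 of the 31 genes were called higher and none was called lower (edgeR quasi-likelihood test, adjusted p under 0.05 over all tested genes). Over all 17427 tested genes, 5.38% were called higher and 6.7% lower; the list was drawn up with this comparison in view, so nothing is read from the larger share. At an unadjusted p under 0.05, 0 members were lower, against 13.1% of all tested genes, and DESeq2 and limma-voom also called 0 lower. The 9 genes were CCP110, KIF24 and CEP97 of the cap, CEP135 and CEP120 of centriole assembly, CETN2 of the lumen, ODF2 and CNTRL of the mother centriole, and PCM1 of the satellites. The log2 fold change was above 0 in 30 of 31 genes, against 49.3% of all tested genes, with a median of 0.18, against -0.004 over all tested genes. The changes were small: the largest was 1.53-fold. In 14 genes the 3 miR-34a libraries all lay above the 3 control libraries, an arrangement seen in 13.1% of all tested genes.

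**Figure D1:**
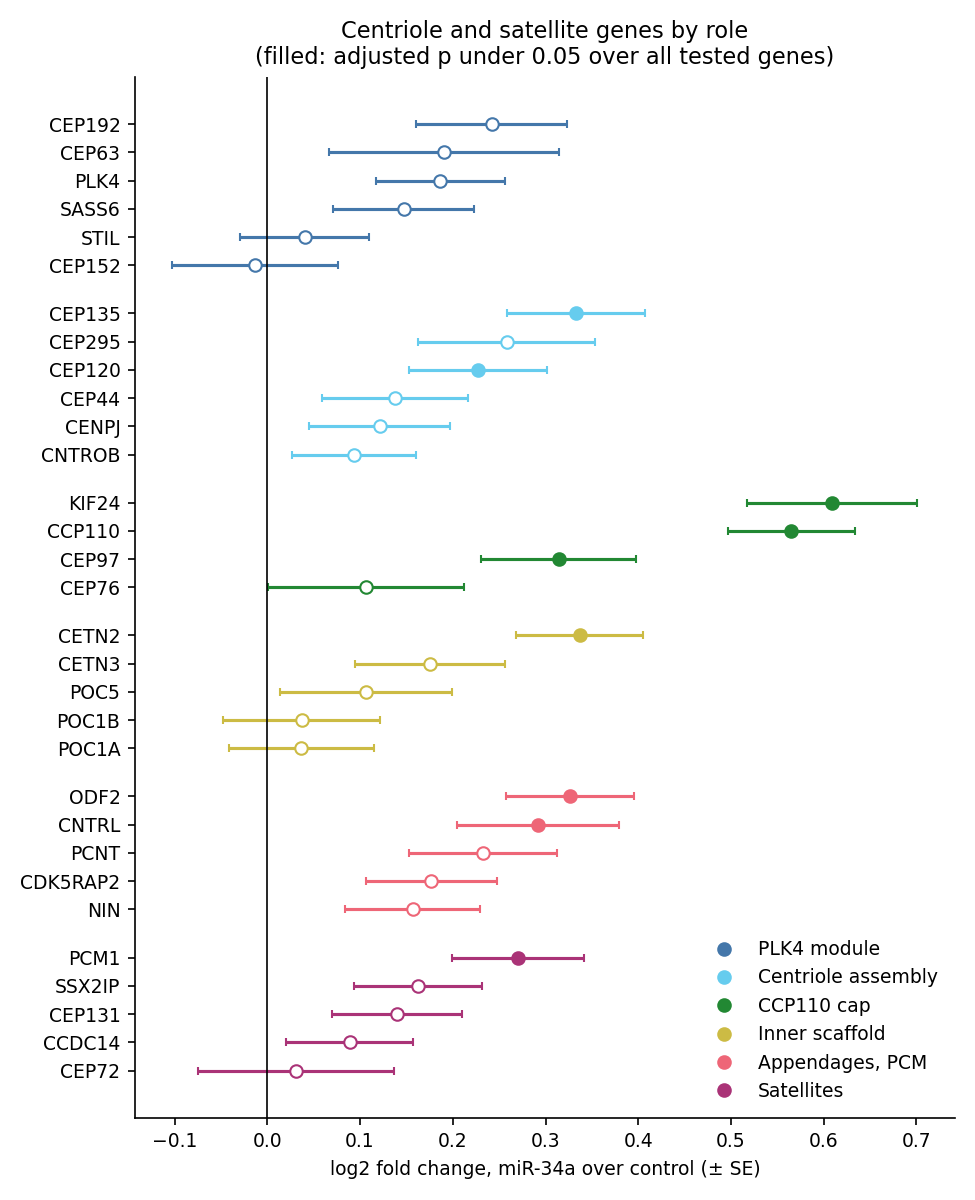
Log2 fold change of miR-34a over control for each of the 31 genes (x axis, bars ± SE, n = 3 libraries per group), ordered within 6 role groups; filled points passed an adjusted p of 0.05 over all tested genes. KIF24 and CCP110 stand farthest to the right at 0.61 and 0.57, and CEP152 alone lies left of 0, at -0.01.

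The number of called genes rested on single libraries. It was 5 without control replicate 2 or without miR-34a replicate 3, and 14 without control replicate 1. CCP110, KIF24, CEP135, CETN2 and ODF2 passed in each of the 6 fits that left out 1 library, PCM1 in 4, CEP97 in 3, CNTRL in 2 and CEP120 in 1. Without control replicate 1, CEP192, CEP295, PCNT, PLK4 and SASS6 passed as well. Without miR-34a replicate 1, CEP192 and PCNT were added, and without miR-34a replicate 2, CEP295 was. Control replicate 2 was the lowest of the 6 libraries in 19 of the 31 genes, against 21.8% of all tested genes, and miR-34a replicate 3 was the highest in 17, against 17.6%. In bulk RNA, a change in the share of cells that express a gene and a change in RNA per cell cannot be told apart.

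**Figure D2:**
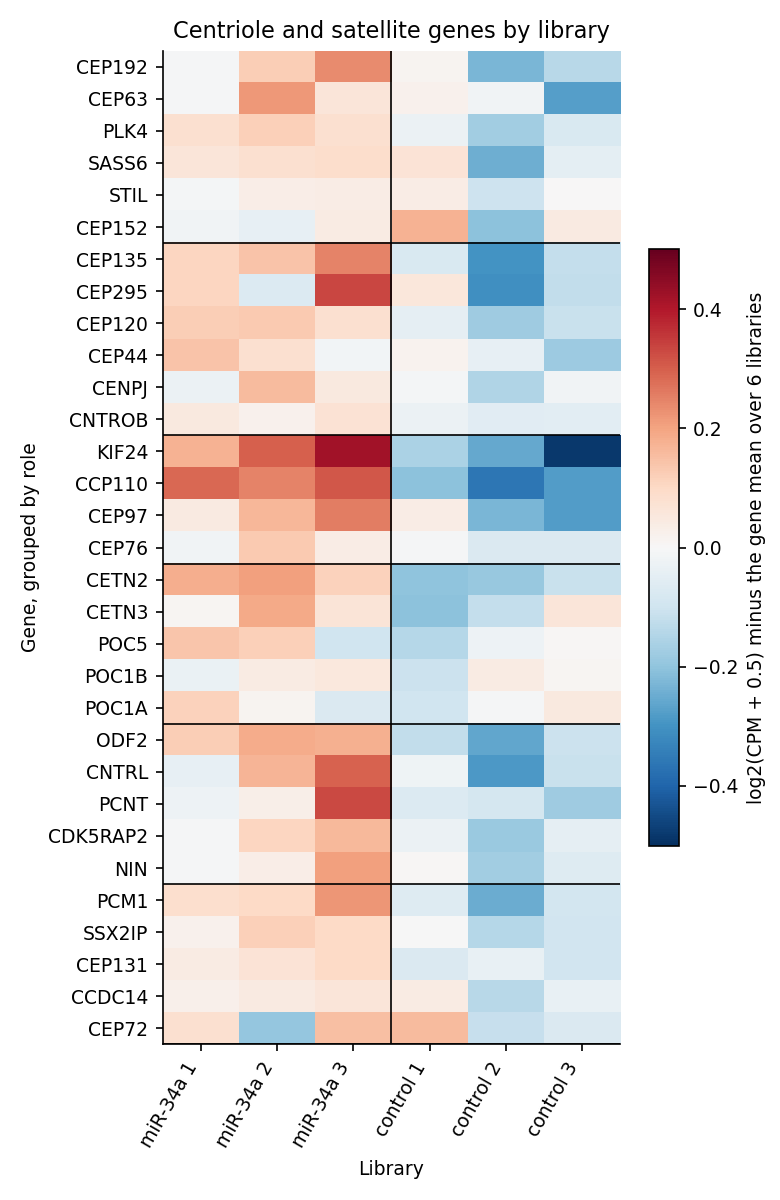
Heat map of log2(CPM + 0.5) minus the gene's mean over the 6 libraries, with genes in rows by role and libraries in columns, miR-34a left and control right of the vertical line. Control replicate 2 was the lowest library in 19 genes and miR-34a replicate 3 the highest in 17.

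The fold changes also moved with the base composition and length of the transcripts. Centriole transcripts are poor in GC and long: the median GC content of the 31 was 41.2% and the median length 4900 nt, against 49.7% and 3128 nt over 13460 coding tested genes. When those 13460 genes were sorted by GC content into 5 equal bins, the median log2 fold change was 0.11 in the GC-poorest bin and -0.13 in the GC-richest. In the GC-poorest bin 16.2% of 2692 genes were called higher. That bin held 17 of the 31 centriole genes, 6 of them called. Over 5 bins of length, the median log2 fold change was -0.07 in the shortest and 0.07 in the longest, and 14 of the 31 genes fell in the longest. The libraries of a group were not alike in this. In the longest bin, the median log2 CPM relative to each gene's mean was -0.006, 0.015 and 0.082 in miR-34a replicates 1, 2 and 3. It was 0.036, -0.074 and -0.047 in control replicates 1, 2 and 3. Control replicate 1 thus lay above miR-34a replicates 1 and 2. With offsets that remove the trend with length and GC content in each library, a setting added after the data had been seen, the median of the 31 was 0.12 and 10 genes were called. CCP110, KIF24, CEP135, CETN2, ODF2 and PCM1 were among those 10, CEP97, CNTRL and CEP120 were not, and PCNT, CEP131, CNTROB and CDK5RAP2 were added. The part of composition and length in the changes was not tested beyond this.

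**Figure D3:**
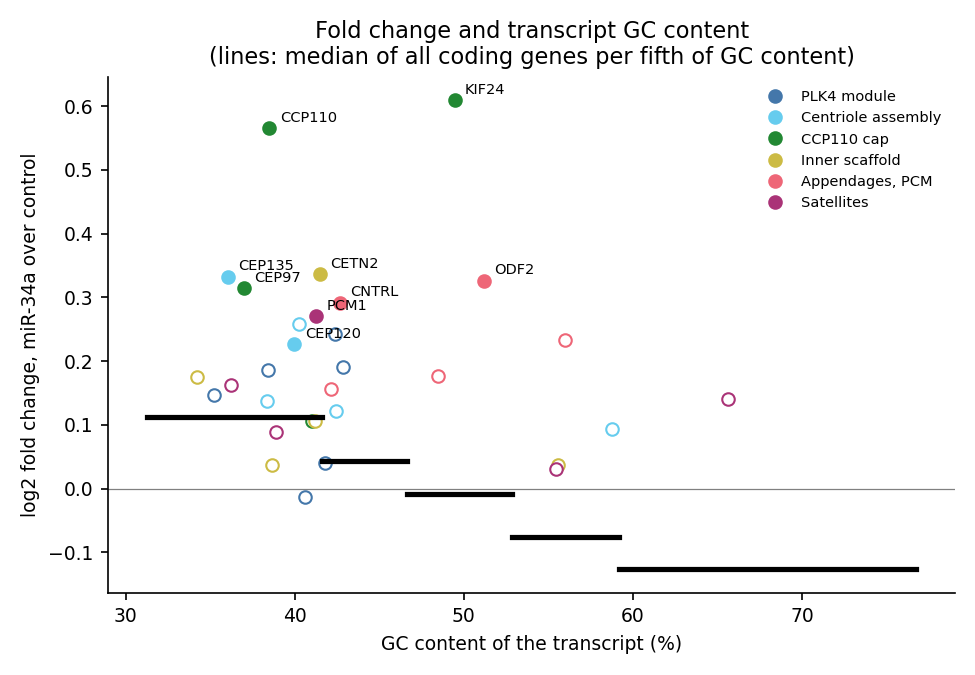
Log2 fold change of miR-34a over control (y axis) against the GC content of the transcript with the longest coding sequence (x axis, percent) for the 31 genes, coloured by role and filled where called. Black lines are the medians of all coding tested genes in 5 bins of GC content, which run from 0.11 in the GC-poorest bin to -0.13 in the GC-richest; CCP110, KIF24 and ODF2 lie well above the line of their bin.

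The cap on the distal end held the largest changes, those of KIF24 and CCP110. Of its 4 genes 3 rose, and the median log2 fold change of the 4 was 0.44. CEP97, at 0.314, lay below CETN2 (0.337), CEP135 (0.333) and ODF2 (0.326) of other role groups, and CEP76 was at 0.106. CCP110, the cap protein itself (ENSG00000103540, chromosome 16 at 19523811 to 19553408, plus strand, GRCh38), stood at 132, 129 and 134 CPM in the miR-34a libraries and at 93.9, 84.1 and 89.2 CPM in the controls. The groups were far apart, with no miR-34a library near any control. That is 1.48-fold, or 0.57 ± 0.07 on the log2 scale (SE), and the edgeR adjusted p was 1.8e-06. With the length and GC offsets the log2 fold change was 0.45.

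KIF24, a kinesin that shortens centriolar microtubules and binds CCP110 (ENSG00000186638, chromosome 9 at 34252381 to 34311371, minus strand), stood at 32.4, 35.4 and 38.4 CPM with miR-34a and at 25.6, 23.9 and 20.4 CPM in the controls. No library of either group entered the range of the other. At 0.61 ± 0.09 (SE) on the log2 scale it had the largest change of the 31 genes (edgeR adjusted p = 4.01e-05), and the value was 0.61 again with the offsets. Of its exonic length, 2.33% is shared with UBAP1 on the opposite strand, which had a log2 fold change of 0.04.

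CEP97, which recruits CCP110 to the centriole end (ENSG00000182504, chromosome 3 at 101723925 to 101770562, plus strand), stood at 57.8, 63.0 and 67.0 CPM with miR-34a and at 57.6, 47.8 and 46.1 CPM in the controls. The lowest miR-34a library and the highest control nearly touched. The difference was 0.31 ± 0.08 (SE) on the log2 scale (edgeR adjusted p = 0.0133), but 0.16 with the offsets (adjusted p = 0.116). It missed the threshold in 3 of the 6 fits that left out a library: the adjusted p was 0.0645 when the third miR-34a library was left out, 0.0853 for the second control and 0.108 for the third. CEP76, a CCP110 partner that restrains repeated duplication, averaged 12.4 ± 0.665 CPM with miR-34a and 11.6 ± 0.328 CPM in the controls (SD, n = 3 each), did not pass (edgeR adjusted p = 0.598), and shares 7.6% of its exonic length with PSMG2 on the opposite strand.

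**Figure D4:**
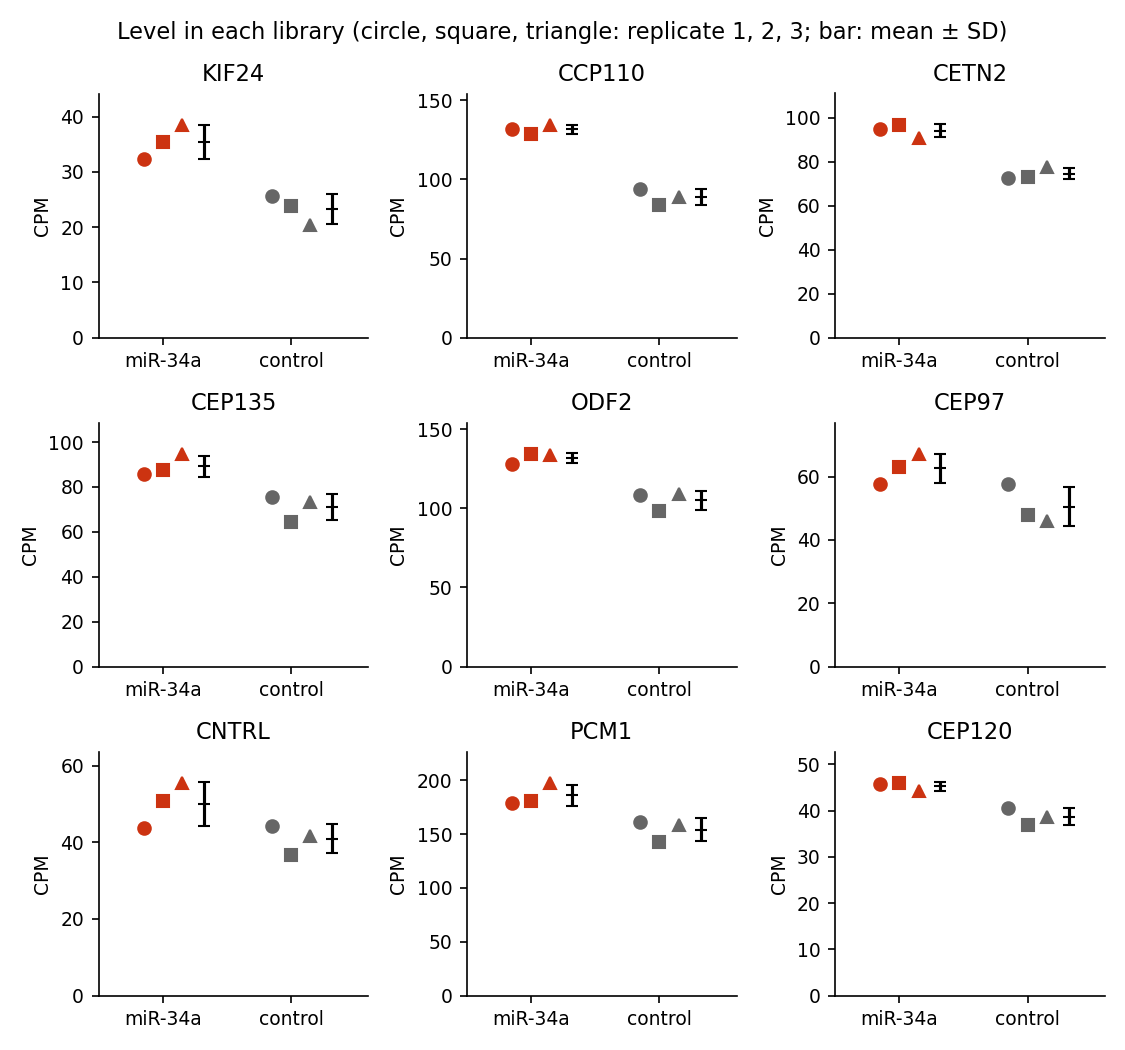
CPM in each library for the 9 genes called higher, miR-34a (red) left of control (grey) in each panel; the symbol marks the replicate number and the black bar the mean ± SD (n = 3). The groups do not overlap in 8 panels; in CNTRL, the lowest miR-34a library (43.8 CPM) lies below the highest control (44.4 CPM).

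None of the 6 genes that start duplication passed. PLK4 stood at 79.1, 81.4 and 79.3 CPM with miR-34a and at 73.5, 66.4 and 71.0 CPM in the controls. The groups did not overlap, but the difference was small, at 0.19 ± 0.07 (SE) on the log2 scale (edgeR adjusted p = 0.0842). It passed with DESeq2 (adjusted p = 0.0469) and without control replicate 1 (edgeR adjusted p = 0.0448). With the offsets the log2 fold change of PLK4 was 0.078 (adjusted p = 0.42), with a replicate block the adjusted p was 0.169, and without any of the other 5 libraries it was 0.139 to 0.256. SASS6, the cartwheel protein, stood at 85.6, 86.8 and 87.2 CPM with miR-34a and at 86.0, 69.3 and 79.4 CPM in the controls, so that 1 control lay within the range of the miR-34a libraries (edgeR adjusted p = 0.24).

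STIL, which links PLK4 to the cartwheel, and CEP152, a PLK4 scaffold, had log2 fold changes of 0.04 ± 0.07 and -0.01 ± 0.09 (SE). The other scaffold, CEP192, had 0.24 ± 0.08 and missed the threshold closely (edgeR adjusted p = 0.0522). It passed with DESeq2 size factors, library size alone, no filter, a filter at 1 CPM, DESeq2 and limma-voom, with adjusted p between 0.0269 and 0.0481, and without replicate 1 of miR-34a (0.0288) or of the controls (0.0085). It did not pass with the offsets (log2 fold change 0.15, adjusted p = 0.136), with the block (0.0751) or without any of the other 4 libraries (0.134 to 0.24). CEP63, the partner of CEP152, was the least abundant of the 31 genes per kilobase of exon, at 0.941 CPM per kb with miR-34a and 0.827 CPM per kb in the controls. Its log2 fold change was 0.19 ± 0.12 (SE). It shares 2.95% of its exonic length with ANAPC13 on the opposite strand, which rose (log2 fold change 0.34).

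Of the 6 genes that assemble, lengthen and mature the centriole, 2 rose. CEP135, which joins the cartwheel to the microtubule wall, stood at 85.6, 87.7 and 94.5 CPM with miR-34a and at 75.3, 64.5 and 73.1 CPM in the controls. Each miR-34a library was above each control, by 0.33 ± 0.07 (SE) on the log2 scale over the groups (edgeR adjusted p = 0.00308), and by 0.19 with the offsets (adjusted p = 0.0329). CEP120, a partner of CENPJ in elongation, stood at 45.6, 45.9 and 44.2 CPM with miR-34a and at 40.5, 36.9 and 38.6 CPM in the controls.

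The groups did not overlap for CEP120, yet its call was at the edge: the difference was 0.23 ± 0.07 (SE) on the log2 scale, with an edgeR adjusted p of 0.0463, against 0.192 with the offsets. It passed without control replicate 1 (0.0261) but not without any of the other 5 libraries (0.0708 to 0.162). CENPJ itself, CEP44, CNTROB (centrobin, a daughter-centriole protein) and CEP295, needed for a new centriole to become a centrosome, had log2 fold changes of 0.12, 0.14, 0.09 and 0.26 and did not pass. CEP295 shares 11.3% of its exonic length with AP001273.1, a locus on the opposite strand that GENCODE lists as still to be checked by experiment. That is the largest share among the 31 genes, but AP001273.1 averaged only 1.46 CPM with miR-34a and 1.57 CPM in the controls. A further 2.63% is shared with TAF1D on the opposite strand, at 140 CPM with miR-34a and 146 CPM in the controls (log2 fold change -0.07).

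In the lumen of the centriole, CETN2 rose while the other 4 genes did not pass. CETN2 is a calcium-binding centrin that also works in nucleotide excision repair. It stood at 95.0, 96.5 and 90.7 CPM with miR-34a and at 72.7, 73.2 and 77.4 CPM in the controls, with wide space between the groups. The rise was 0.34 ± 0.07 (SE) on the log2 scale (edgeR adjusted p = 0.00122). CETN2 was also the most abundant of the 31 genes per kilobase of exon, at 48.8 CPM per kb with miR-34a and 38.6 CPM per kb in the controls. Its paralogue CETN3 had 0.18 ± 0.08 (SE) and an edgeR adjusted p of 0.18, and the difference between the paralogues was not tested. The inner scaffold proteins POC1A, POC1B and POC5 had log2 fold changes of 0.04, 0.04 and 0.11.

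Of the genes for the mother centriole's appendages and the pericentriolar material, 2 of 5 rose, and all 5 were higher at an unadjusted p under 0.05, against 11.3% of all tested genes. ODF2, the gene of cenexin, needed to form the appendages, stood at 128, 134 and 133 CPM with miR-34a and at 108, 98.3 and 109 CPM in the controls, with no overlap. It rose by 0.33 ± 0.07 (SE) on the log2 scale (edgeR adjusted p = 0.00179), and by 0.35 with the offsets. CNTRL (centriolin), a protein of the maternal centriole, stood at 43.8, 50.7 and 55.4 CPM with miR-34a and at 44.4, 36.8 and 41.7 CPM in the controls.

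CNTRL was the only called gene of the 9 whose groups overlapped. The difference was 0.29 ± 0.09 (SE) on the log2 scale, with an edgeR adjusted p of 0.0286, against 0.0594 with the offsets. It passed only when replicate 1 of either group was the library left out (0.00513 and 0.00691), with 0.0662 to 0.188 for the other 4. PCNT (pericentrin), the main scaffold of the pericentriolar material, stood at 205, 213 and 263 CPM with miR-34a and at 199, 196 and 185 CPM in the controls. The groups did not overlap, the highest value was that of miR-34a replicate 3, and the edgeR adjusted p was 0.0586, against 0.00226 with the offsets. With that library left out, the difference in PCNT was 0.11 on the log2 scale (edgeR adjusted p = 0.43), against 0.23 with all 6. NIN, which anchors microtubules, and CDK5RAP2, which recruits gamma-tubulin, had log2 fold changes of 0.16 and 0.18.

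Among the satellite genes 1 of 5 rose. PCM1, the scaffold of the granules, stood at 179, 181 and 197 CPM with miR-34a and at 162, 142 and 159 CPM in the controls. All 3 miR-34a libraries were above the controls, and the rise was 0.27 ± 0.07 (SE) on the log2 scale (edgeR adjusted p = 0.0119). It missed the threshold without control replicate 2 (0.0733) or miR-34a replicate 3 (0.0644). CEP131, SSX2IP, CCDC14 and CEP72 had log2 fold changes of 0.14, 0.16, 0.09 and 0.03 and did not pass, and CEP72 shares 11.04% of its exonic length with TPPP on the opposite strand. CEP131 has the GC-richest transcript of the 31, at 65.6%, and passed with the offsets (log2 fold change 0.29, adjusted p = 0.00166 by edgeR).

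**Figure D5:**
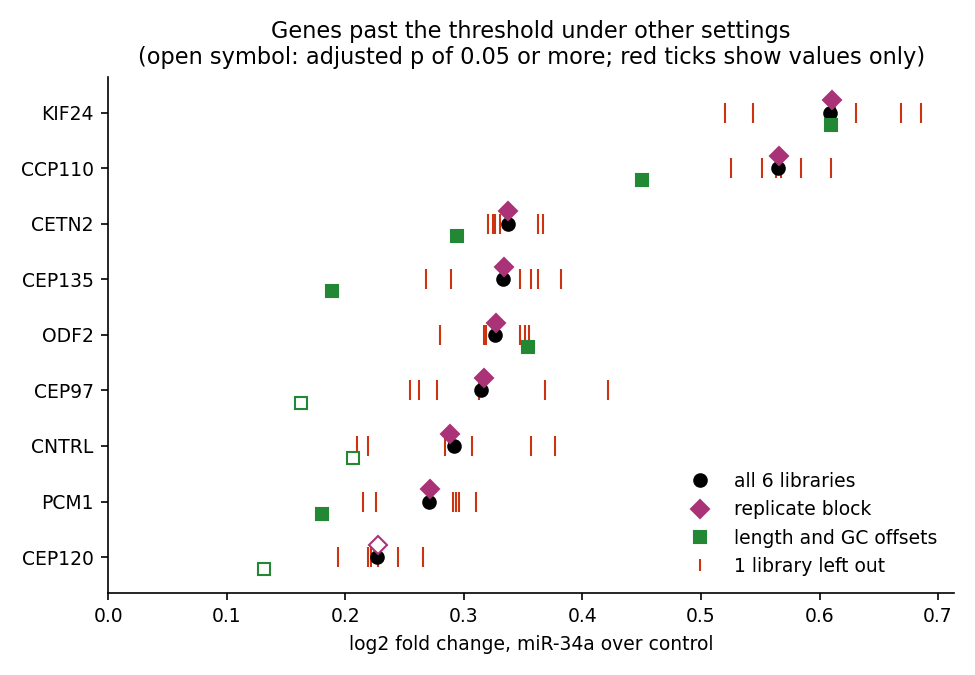
Log2 fold change of miR-34a over control (x axis) of the 9 called genes with all 6 libraries (black circles), with a replicate block (purple diamonds), with length and GC offsets (green squares) and with 1 library left out (red ticks). Open circles, diamonds or squares mark an edgeR adjusted p of 0.05 or more, and the red ticks show values only, not calls. KIF24 and CCP110 stay farthest from 0 in each setting drawn, while the green square of CEP97 is at 0.16 and that of CEP120 at 0.13.

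Other centrosome genes were read beside the 31. They were listed by function, also with earlier results of these data known, so their counts are a description. Of 62 listed, 61 were tested (CCDC13 was not). Of these, 19 rose, 1 fell and 41 did not pass, while 5.38% of all tested genes were called higher and 6.7% lower. The median log2 fold change of the 61 was 0.17. The count of genes that rose was 9 without control replicate 2 and 12 without control replicate 3, miR-34a replicate 2 or miR-34a replicate 3. Of 11 tested satellite genes outside the 31, 6 rose and none fell, and 11 had a log2 fold change above 0, against 49.3% of all tested genes. CCDC113 averaged 25.3 ± 2.75 CPM with miR-34a and 10.2 ± 1.08 CPM in the controls (SD, n = 3 each). CEP90, now named PIBF1, averaged 87.2 ± 5.55 CPM with miR-34a and 57.1 ± 1.67 CPM in the controls.

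CEP126 and CEP290, of which the second is also a gatekeeper of the ciliary transition zone, had log2 fold changes of 0.92 ± 0.13 and 0.49 ± 0.08 (SE). NEK2, a kinase that dissolves the linker between centrosomes, rose by a log2 fold change of 0.44 ± 0.07. These 5 genes had the lowest adjusted p of those that rose, 0.00012 or lower by edgeR. MZT2A, a small subunit of the gamma-tubulin ring complex, was the 1 gene that fell, with a log2 fold change of -0.31 ± 0.08; it has the near-identical copy MZT2B (-0.25), and its value with the offsets was -0.08 (adjusted p = 0.537), and it missed the threshold without control replicate 2 (0.155) or miR-34a replicate 2 (0.0941).

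Several centriole genes, PLK4, STIL and SASS6 among them, are known to rise and fall with the cell cycle, so 25 proliferation genes were read beside them. None of the 25 rose and 3 fell by edgeR, while 5.38% of all tested genes were called higher and 6.7% lower. At an unadjusted edgeR p under 0.05, 8 were higher and 4 lower, against 11.3% and 13.1% of all tested genes. DESeq2 called 2 higher, and edgeR 6 without control replicate 1 and 1 without miR-34a replicate 1. The median log2 fold change of the 25 was 0.07. MCM2, a subunit of the replicative helicase, averaged 188 ± 7.98 CPM with miR-34a and 255 ± 0.986 CPM in the controls. CCNE1 (cyclin E1) and PLK1, a mitotic kinase, had log2 fold changes of -0.28 and -0.21. CCNE1 missed the threshold without control replicate 3 (edgeR adjusted p = 0.0577) or miR-34a replicate 3 (0.0607). PLK1 passed without control replicate 2 (0.0436), but not without any of the other 5 libraries (0.0651 to 0.185) or with the offsets (0.179). Among the 25, NUSAP1 averaged only 0.708 CPM with miR-34a and 0.925 CPM in the controls. It shares 62.16% of its exonic length with AC087721.2 on the same strand, and CCNE2 shares 37.05% with INTS8 on the opposite strand. The part of proliferation in the centriole changes was not tested.

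The start regions of the genes were searched for motifs in RefSeq windows from 250 bases before to 50 after the start, matched for 30 of 31 genes (not CETN3). GTTGCC, the core of 1 arm of the X-box that RFX factors bind in ciliary genes, was found on either strand in 9 of 30 windows, against 12.2% of 27305 windows and 13.0% of those of 11885 tested genes. Of the 9 called genes 6 held it, and of the 21 others with a window 3 did. This split rests on the calls of the main fit. With the length and GC offsets, CEP97 and CNTRL, which held it, were not called, nor was CEP120, which did not hold it. CDK5RAP2, CEP131, CNTROB and PCNT, called only with the offsets, did not hold it. Over all tested genes the share was 20.6% among those called higher in the main fit and 9.92% among those called lower. These are counts, with no test, of a short motif. The windows of the 3 holders not called, CENPJ, CEP44 and SASS6, are not shown. The windows of the 6 called genes are shown on the gene's strand with the match in capitals (GTTGCC, or GGCAAC where it lies on the other strand; RefSeq, GRCh38.p14).
CCP110, chr16:19523911-19523940, plus strand: gcagcggcggcgGTTGCCaggagcccgcgt
KIF24, chr9:34329229-34329258, minus strand: gcgcttggcggcGTTGCCatggagatgcgg
CEP97, chr3:101724635-101724663, plus strand: cgcgggaggacgGTTGCCtggtattatta
CETN2, chrX:152830727-152830756, minus strand: gtgtacacgtcgGTTGCCtaacaaccggca
CEP135, chr4:55948884-55948913, plus strand: tcccgttaccggGGCAACcgcggcgcctcc
CNTRL, chr9:121074940-121074969, plus strand: gcgcggcccctcGGCAACcggcacaacaca
The match starts 19, 49 and 3 bases before the RefSeq start in CCP110, CEP135 and CNTRL, and at bases 23, 34 and 14 of the transcript in KIF24, CEP97 and CETN2. The RefSeq start of KIF24 lies upstream of the span given by GENCODE 29. The window shown for CEP97 starts at 101724635, inside the GENCODE 29 span of that gene, which begins at 101723925. The full X-box palindrome was searched only with the bases between its arms fixed. That form was in none of the 30 windows and in 0.443% of all windows. The CEP135 window shown holds both arms with other bases between them, and such forms were not counted. Matches to TTTGAA, an element of cell-cycle promoters, were in 9 of 30 windows against 15.6% of all, and to CCAAT, bound by NF-Y, in 13 of 30 against 35.6%. TTTCCCGC and TTTGGCGC, bound by E2F factors, were in 3 and 1 of 30 against 1.62% and 0.656%. A half-site of the p53 element was in 1 against 6.63%, and the full element was not searched for. Both strands were read for each motif.

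Library totals ranged from 24728662 to 36650331 counts, and a chi-square test of counts set each pair within a group apart (7.64 or more per degree of freedom), so no library looked like a copy of another. All 8 genes taken as known for HEK293 cells were detected, though PAX2 stood at only 1.14 to 2.24 CPM. NEFL and NEFM of these 8 fell (log2 fold change -0.32 and -0.22), and the 8 summed to 569 to 602 CPM in the miR-34a libraries and 619 to 686 CPM in the controls. The 10 markers of other cell types summed to 23.4 to 27.1 CPM in the miR-34a libraries and 24.7 to 31.03 CPM in the controls, mostly COL1A1 (21.2 to 23.3 CPM with miR-34a and 21.3 to 27.3 CPM in the controls) and EPCAM (up to 3.01 CPM with miR-34a and up to 2.92 CPM in the controls), with CD3E, COL1A2 and DCN at 0 counts in every library. The part of these markers in the centriole changes was not tested.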

How the data were processed

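Raw read counts per Ensembl gene were deposited by the authors, 1 column per library and without normalization, per the file headers. The submitters' processing notes name STAR 2.7.11a, featureCounts, Subread 2.0.3, edgeR 3.42.4 and GRCh38. The sources used here give neither the annotation release nor the strand setting nor how multi-mapped reads were counted. The TruSeq RNA v2 kit does not mark strand, so reads of 7 members that overlap a tested gene on the opposite strand cannot be told apart from its reads.

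Genes were kept with filterByExpr (minimum count 10, minimum total 15), which left 17427. TMM scaling and a quasi-likelihood fit on group alone (edgeR 4.0.16, R 4.3.3) gave the main values, with Benjamini-Hochberg adjustment over all tested genes. Fold changes are miR-34a over control; CPM are counts scaled to the TMM-corrected library size; the SE is the fold change divided by the root of the F statistic. P-values set the difference between the groups against the spread of these 6 libraries within their groups, which edgeR estimates with help from the other genes. Names, coordinates, exon lengths and 3′ UTRs come from GENCODE 29 and RefSeq tables; 62595 of 63140 identifiers had a name. A 3′ UTR of at least 50 nt was needed for a gene to be classed. The site searched was CACTGCCA (8mer), CACTGCC (7mer-m8), ACTGCCA (7mer-A1) or ACTGCC (6mer).

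The members and lists were chosen with earlier results of these data known. Values per library are given for called members and, in a role group with none, for the 2 most abundant; the other centrosome genes named are up to 5 called per direction with the lowest adjusted p, and the proliferation genes up to 3. Genes outside this rule were named after their values were seen. The scripts were tested on simulated data. The alternatives were DESeq2 1.42.0 and limma-voom 3.58.1, other scalings and filters, a replicate block, length and GC offsets (loess, span 0.5) and leaving out each library.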

Additional observations from a re-analysis of the deposited data

How the results depend on the processing

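No member was called lower in any of the 15 alternatives, and the median log2 fold change of the 31 lay between 0.12 (length and GC offsets) and 0.21 (without control replicate 1). With single libraries left out, called members numbered 5 to 14, called genes overall 1317 to 2681 (525 to 1287 higher, 727 to 1394 lower), other centrosome genes 9 to 23 higher and 0 to 2 lower, and proliferation genes 0 to 6 higher and 1 to 4 lower. Proliferation genes called higher were 2 with library size alone, 4 with no filter, 2 with DESeq2 and 1 with the offsets and block, where other centrosome genes called lower were 0. Counting 6mers, 4 members held a site. A replicate block called 8 members, losing CEP120 (edgeR adjusted p = 0.0953), and 1830 of all tested genes, against 2105 without the block. Same-numbered libraries deviated with correlations of -0.08, 0.05 and -0.17, which show no strong shared effect of the replicate number. They cannot tell whether same-numbered libraries were prepared together, and the labels name no block. Signs turned, never with a call, for CEP152 (0.0014 with library size, 0.0018 with limma-voom, -0.11 to 0.078 over the fits that left out 1 library), POC1A (-0.012 to 0.082 over those fits), CEP72 (-0.046 to 0.13 over them), and, with the offsets first without and then with the block, STIL (-0.035 and -0.035), POC1B (-0.066 and -0.065) and CCDC14 (-0.015 and -0.015); the cause was not tested. Counts per member were 227 or more in each library, and 3 libraries a group limit what small changes can be called.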
